A study of Mus musculus with 2 samples.

Results

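The oncostatin M, gp130 and Stat3 axis was followed through 7 genes in ependymal cells of the mouse spinal cord: the receptor chains Osmr, Il6st (gp130) and Lifr, the transcription factor Stat3, its inhibitor Socs3, the ligand Clcf1 and the protease inhibitor gene Serpina3n. These genes were chosen as a receptor, signalling and response set, with earlier results of these data known. All 7 were present among the 17189 genes of the authors' table of EpA cells. They were read by library and by cell in EpA cells and, for comparison, in the other kept cells of the same sort.

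EpA cells are a subset of the ependymal cells lining the central canal, and the experiment asked how their transcripts differ after injury. The injured library came from cords whose dorsal funiculus had been incised 3 days earlier, and the uninjured library from intact cords, with a 5 mm segment taken at the lesion or at the matching level. Both came from C57BL/6J adults at least 12 weeks old, of the cross Troy-CreERT2+/- x Rosa26-tdTomato, and tdTomato-positive cells were sorted into a 10x Genomics 3′ single-cell library per condition. CreERT2 is a recombinase activated by tamoxifen, and Troy is another name of Tnfrsf19, so the sort takes every cell in which that driver was active, not ependymal cells alone. How many animals entered each library is not given in the sources used here, so animals may have been pooled. Each condition was sequenced as 1 library, which leaves the differences below without replicates, and none was tested.

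Cytokines of the interleukin-6 (IL-6) family signal through receptors that share gp130. In the mouse, oncostatin M acts mainly through gp130 paired with OSMR, while CLCF1 acts through a receptor built of CNTFR, LIFR and gp130. Janus kinases on these chains phosphorylate STAT3, which enters the nucleus and activates genes that include its own inhibitor Socs3. In reactive astrocytes this route is known for Gfap and Serpina3n, and STAT3 is needed for the astrocyte border around spinal cord lesions.

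The windows of 250 bases before to 50 after the gene start are shown for the 3 members that the results turn on most, 2 that were near or at 0 in uninjured EpA cells and the feedback inhibitor. They come from RefSeq on build GRCm38.p6, written 5′ to 3′ on the gene's strand, and windows were found for 6 of the 7 members. Capitals in the Socs3 window at chr11:117969317-117969616 (minus strand) mark a match to the STAT motif TTCNNNGAA. Capitals in the Osmr window at chr15:6874264-6874563 (minus strand) mark a match to the AP-1 motif TGANTCA, the site type of Fos and Jun. The Serpina3n window at chr12:104406458-104406757 (plus strand) held neither.
Socs3: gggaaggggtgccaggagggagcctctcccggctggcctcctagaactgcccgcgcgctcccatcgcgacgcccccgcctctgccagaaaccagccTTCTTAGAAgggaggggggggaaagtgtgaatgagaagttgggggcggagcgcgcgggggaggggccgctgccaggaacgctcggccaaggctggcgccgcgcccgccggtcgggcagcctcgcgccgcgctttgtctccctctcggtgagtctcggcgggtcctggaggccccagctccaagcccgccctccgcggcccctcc
Osmr: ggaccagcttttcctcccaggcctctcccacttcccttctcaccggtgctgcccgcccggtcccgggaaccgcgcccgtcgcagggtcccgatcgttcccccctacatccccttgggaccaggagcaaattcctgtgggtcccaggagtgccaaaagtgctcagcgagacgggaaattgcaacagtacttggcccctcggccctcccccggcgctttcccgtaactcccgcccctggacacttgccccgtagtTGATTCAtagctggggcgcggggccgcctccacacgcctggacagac
Serpina3n: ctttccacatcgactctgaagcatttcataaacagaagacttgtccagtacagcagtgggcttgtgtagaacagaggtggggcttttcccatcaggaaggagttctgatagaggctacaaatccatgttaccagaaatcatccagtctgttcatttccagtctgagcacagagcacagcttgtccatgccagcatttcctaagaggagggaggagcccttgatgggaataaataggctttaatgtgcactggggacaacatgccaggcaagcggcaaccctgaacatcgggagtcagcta
The Socs3 match begins at position −154 and the Osmr match at position 4 from the RefSeq start base. The GENCODE spans of these minus-strand genes, given below, begin upstream of both windows, at 117970047 for Socs3 and 6874969 for Osmr. The positions therefore hold for the RefSeq starts only. Both strands were searched, and the 3 motifs (TTCNNNGAA, its stricter form TTCCNGGAA, which it contains, and TGANTCA) occurred in 8.30%, 1.15% and 7.81% of all 32851 windows. No other member window held any of them. Such matches describe letters and do not show binding.

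In the GENCODE M21 annotation of GRCm38 the members are protein-coding genes on 5 chromosomes. Osmr spans 6813577 to 6874969 and Lifr 7090614 to 7197489 of chromosome 15. Stat3 spans 100885098 to 100939540 and Socs3 117966079 to 117970047 of chromosome 11, Il6st 112464070 to 112510086 of chromosome 13, Serpina3n 104406729 to 104414329 of chromosome 12 and Clcf1 4214238 to 4223490 of chromosome 19. Clcf1 overlaps a further annotated gene on its own strand, AC109138.7, so its count is uncertain to that extent. Serpina3n has near-identical neighbours in its cluster, and reads of such copies can be lost or misassigned. Of those neighbours the tables list Serpina3g and Serpina3i, and neither had a UMI (unique molecular identifier, 1 per captured transcript) in EpA cells.

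The EpA set held 1004 injured and 555 uninjured cells, with 25296289 and 7689179 UMIs and medians of 20158.5 and 11387 UMIs per cell. Levels are given as CPM, counts per 1000000 UMIs summed over the cells of a library, and bracketed ranges are 95% intervals that cover counting error only. The label held against its markers: 10 of 11 ependymal markers stood at 100 CPM or more in both libraries, although their sum was 2942 CPM in injured and 10505 CPM in uninjured EpA cells. The 15 markers of microglia and macrophages summed to 48.6 CPM in injured and 51.2 CPM in uninjured EpA cells. The highest marker alone made up 38.8 and 44.9 CPM of these sums, so they say little about the other markers. Markers of astrocytes summed to 1087 CPM in injured and 617 CPM in uninjured EpA cells, of which Gfap made up 559.5 and 8.58 CPM, and those of pericytes and smooth muscle to 764 and 43.7 CPM. The libraries shared 18 barcode sequences, of which 2 were EpA cells in both.

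Among the receptors, injured EpA cells differed from uninjured ones in Osmr, the chain that makes a cell responsive to oncostatin M. Osmr stood at 23.6 CPM (21.7 to 25.6) in injured and 0.780 CPM (0.286 to 1.70) in uninjured EpA cells. It was seen as 597 UMIs in 336 of 1004 injured cells and as 6 UMIs in 6 of 555 uninjured cells, a ratio of 30.2 (13.8 to 82.7). The intervals of the levels lie far apart. Il6st, the shared signalling chain, went the other way, with 58.5 CPM (55.5 to 61.5) in injured and 95.8 CPM (89.1 to 103) in uninjured cells. It was 1.64-fold lower (1.499 to 1.79) in the injured library, but as UMIs per cell without scaling its log2 ratio was 0.15 in place of −0.71. For Lifr the libraries could not be told apart at this depth. Lifr stood at 7.04 CPM (6.04 to 8.15) in injured and 7.41 CPM (5.61 to 9.60) in uninjured cells, a ratio of 0.949 (0.701 to 1.30), with a log2 ratio of 0.78 as UMIs per cell.

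Stat3 and Socs3, the factor and its feedback inhibitor, were higher in the injured library by less than the receptor. Stat3 stood at 88.2 CPM (84.6 to 92.0) in injured and 31.9 CPM (28.0 to 36.1) in uninjured EpA cells, a ratio of 2.77 (2.43 to 3.17). Socs3 stood at 216 CPM (210.1 to 222) in injured and 130.1 CPM (122 to 138) in uninjured cells, a ratio of 1.66 (1.55 to 1.78). This Socs3 ratio is an average over unlike cells, and its direction depended on which cells were compared, as given below.

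The ligand and the responding gene were close to absent from uninjured EpA cells. Clcf1, which encodes cardiotrophin-like cytokine factor 1, stood at 24.2 CPM (22.4 to 26.2) in injured and 1.43 CPM (0.714 to 2.56) in uninjured cells, a ratio of 16.9 (9.40 to 34.1). Serpina3n, encoding a secreted inhibitor of serine proteases, had 957 UMIs in injured cells, or 37.8 CPM (35.5 to 40.3), and none in uninjured cells. Against 3 counts over the uninjured sum, which a count of 0 allows, it was 97.0-fold higher, and the lower end of its exact interval was 78.7. Serpina3n is listed in the uninjured library's own table, so this 0 is not the result of a gene left out there.

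**Figure D1:**
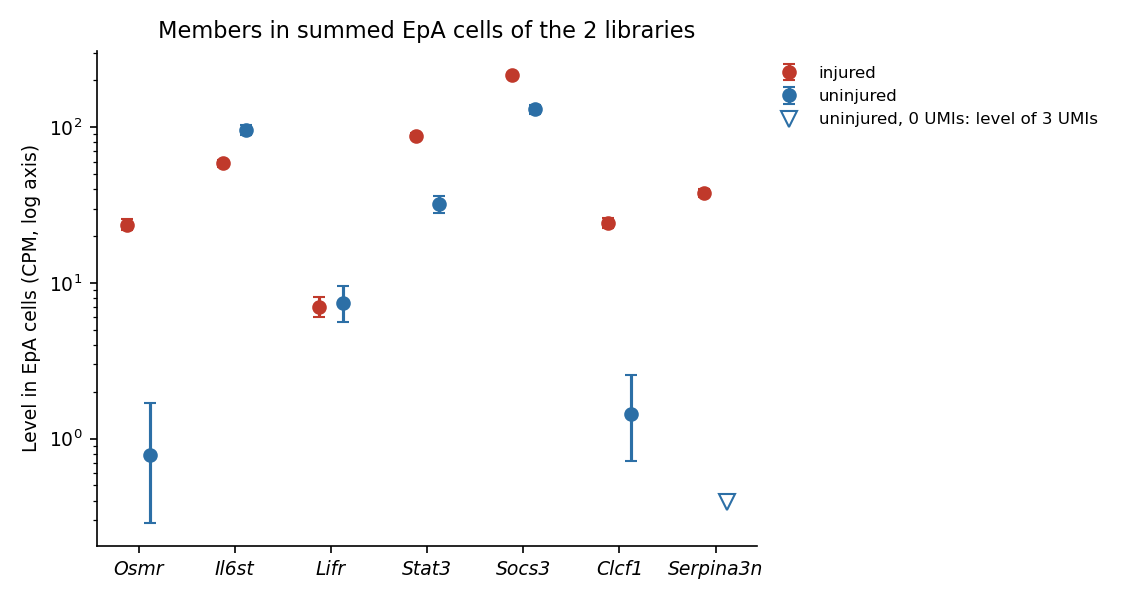
Levels of the 7 members summed over EpA cells, in CPM on a log axis, with points for the injured (red, left) and uninjured (blue, right) library and bars for 95% Poisson intervals; the open triangle marks 0 UMIs, drawn at the level of 3 UMIs. Osmr, Clcf1 and Serpina3n are separated by more than 10-fold, Lifr overlaps, and Il6st lies higher in the uninjured library.

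Read by size, 4 of the 7 members were higher by 2-fold or more in injured EpA cells and 0 were lower by as much. Over the 11116 genes that reached 5 CPM in one or the other library, the same rule called 12.5% higher and 12.2% lower, with a median log2 ratio of −0.03. Osmr, Clcf1 and Serpina3n reached that floor only in the injured library, and at their uninjured levels a gene can reach it only by being at least 2-fold higher, so the count of members carries no weight of its own. Of all called genes 50.6% were higher, a share that was 95.2% as UMIs per cell, where the median of all genes shifts to 0.84, and 62.3% with every cell weighted alike. Osmr, Stat3, Clcf1 and Serpina3n were at least 2-fold higher under both of these scalings.

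Genes around the members were counted in lists of the family, chosen with results of these data known. Of 76 listed genes, 46 reached 5 CPM, and 12 of these were higher, 1 was lower and 33 lay between. Over all genes 12.5% were higher and 12.2% lower. The median log2 ratio was 0.21 for the lists against −0.03 for all genes. Of the 12, Clcf1, Il11, Osmr, Serpina3n, Bcl3, Myc, Vegfa and Timp1 reached 5 CPM only in the injured library. The count is therefore a description. The ligand list had 3 measured genes, Clcf1, Il11 and Ctf1. Il11, encoding interleukin-11, stood at 23.3 CPM in injured and 0.390 CPM in uninjured cells, but 347 of its 590 injured UMIs lay in 1 cell, and without that cell it stood at 9.64 CPM. Ctf1, cardiotrophin 1, lay at 12.0 CPM in injured and 20.4 CPM in uninjured cells. Oncostatin M itself, Osm, had 0 UMIs in the EpA cells of either library, and Il6, Lif and Cntf were each below 1 CPM in both.

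Of 6 measured receptor genes, Osmr alone was 2-fold higher and Il11ra1 alone 2-fold lower. Il11ra1, the interleukin-11 receptor chain, stood at 39.1 CPM in injured and 80.5 CPM in uninjured EpA cells, 2.06-fold lower (1.86 to 2.28), but under 2-fold with TMM scaling (log2 ratio −0.98) and at a log2 ratio of −0.18 as UMIs per cell. Il6ra, the interleukin-6 receptor, and Cntfr, the ciliary neurotrophic factor receptor that CLCF1 uses, had ratios of 1.12 (0.958 to 1.32) and 1.25 (0.847 to 1.91). Of 7 measured kinases and STATs only Stat3 was called. The kinases Jak1 and Jak2 had ratios of 1.14 (1.03 to 1.26) and 0.874 (0.752 to 1.02), and Tyk2 was under the floor in both libraries, at a ratio of 1.43 (0.840 to 2.58). Jak3, a kinase of lymphoid cytokine receptors, was also under the floor, with 103 UMIs in injured and 1 UMI in uninjured cells, a ratio of 31.3 (5.50 to 1248). Of 14 measured inhibitors, Socs2, which restrains growth hormone signalling, was the 1 called, with 34.3 CPM in injured and 6.11 CPM in uninjured cells and a ratio of 5.61 (4.18 to 7.69). Among cells within the cilium range, defined below, its log2 ratio was 0.83, under the 2-fold mark, against 2.47 over all EpA cells.

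Of 19 measured genes on the list of STAT3 targets, 9 were higher and 0 lower, with a median log2 ratio of 0.93, where 12.5% of all genes were higher and 12.2% lower. The 9 include the members Osmr, Stat3 and Serpina3n, and 6 of them (Osmr, Serpina3n, Bcl3, Myc, Vegfa and Timp1) reached 5 CPM only in the injured library, so this count too is a description. Among those with a UMI in uninjured EpA cells, Timp1, an inhibitor of matrix proteases, had the largest ratio, with 327 CPM in injured and 0.910 CPM in uninjured cells. Gfap, the astrocyte filament gene, stood at 559.5 CPM in injured and 8.58 CPM in uninjured cells, and Ccnd1, encoding cyclin D1, at 276 and 7.54 CPM. The other 10 measured targets lay between the limits. Many of these genes answer to other pathways too, so the list is not a measure of STAT3 activity, and phosphorylation of the protein was not measured.

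**Figure D2:**
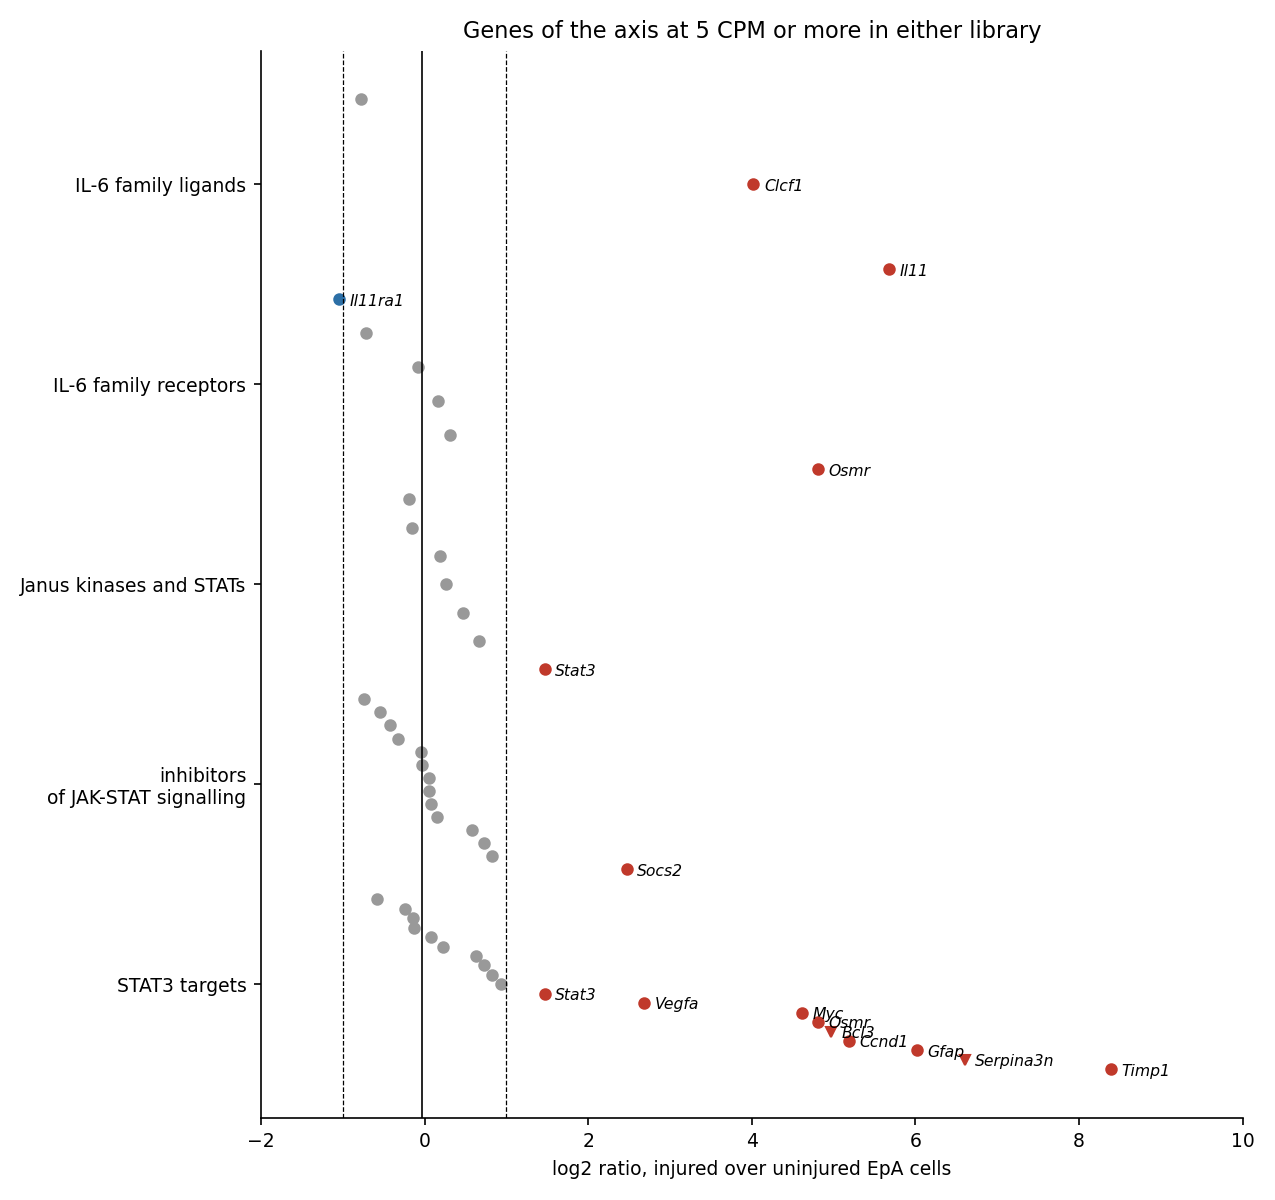
The log2 ratio of injured over uninjured EpA cells for each measured gene, in 5 lists from top to bottom; red points are at least 2-fold higher, the blue point at least 2-fold lower, grey points lie between, triangles are genes with 0 uninjured UMIs set against 3 counts, dashed lines mark 2-fold and the solid line the median of all genes. Receptors, kinases and inhibitors lie around the median apart from Osmr, Il11ra1, Stat3 and Socs2, whereas 2 of 3 ligand genes and 9 of 19 targets lie to the right.

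Counted per cell at equal depth, Osmr, Serpina3n and Clcf1 were found in a minority of injured EpA cells. With each cell thinned to 5000 UMIs, which left 972 injured and 539 uninjured cells, Osmr was seen in 9.98% (8.17 to 12.0) of injured and 0.186% (0.00470 to 1.03) of uninjured cells. Serpina3n was seen in 12.8% (10.7 to 15.02) of injured cells and in 0 of 539 uninjured cells, which allows up to 0.557% of cells with a UMI (3 of 539) and sets no limit on cells that carry the transcript. Clcf1 was seen in 6.69% (5.20 to 8.44) of injured and 0.928% (0.302 to 2.15) of uninjured cells. These shares are floors set by depth, since without thinning Osmr was seen in 33.5% and Serpina3n in 31.0% of injured cells.

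The more abundant members were seen more widely, and in all UMIs of a cell Stat3 was seen in 71.2% of injured and 30.3% of uninjured cells, Socs3 in 69.1% and 36.4% and Il6st in 67.8% and 64.1%. The following shares are at 5000 UMIs. Stat3 had a UMI in 33.6% (30.7 to 36.7) of injured and 15.4% (12.5 to 18.7) of uninjured cells, and Socs3 in 44.9% (41.7 to 48.0) and 23.4% (19.9 to 27.2). Il6st had one in 26.9% (24.1 to 29.8) of injured and 35.3% (31.2 to 39.4) of uninjured cells. The intervals of injured and uninjured cells do not overlap for any of these 3 genes, and they overlap for Lifr, at 3.19% (2.18 to 4.50) and 2.97% (1.71 to 4.78). Microglia-like cells of the same libraries were set beside EpA cells as a background for free RNA of genes they should lack. Their median depths were 21186.5 UMIs in 30 injured and 7171.5 UMIs in 36 uninjured cells. Osmr and Serpina3n had no UMI in any of them, but at 5000 UMIs only 22 cells were left per library, and 0 of 22 allows a share of up to 13.6%, which is above the injured shares of Osmr, Clcf1 and Serpina3n. The summed levels separate them: 0 UMIs in injured microglia-like cells allows up to 4.06 CPM, below the 23.6, 24.2 and 37.8 CPM of Osmr, Clcf1 and Serpina3n in injured EpA cells. Of 22 uninjured microglia-like cells 2 had a Clcf1 UMI and 3 a Lifr UMI, and the Clcf1 share of uninjured EpA cells, which was smaller, was not read as expression. Whether free RNA makes up any of these UMIs, in microglia-like or in EpA cells, was not tested. Lifr stood at 37.3 CPM in uninjured microglia-like cells, and Il6st, Stat3 and Socs3 were present there too, so these cells give no background for those 4 genes.

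Within the 972 injured cells, the share with one member differed by the presence of another beyond counting error for few pairs. Among them were Stat3 with Socs3, Serpina3n with Il6st, Serpina3n with Stat3 and Osmr with Socs3. Of 124 cells with Serpina3n, 38.7% (30.1 to 47.9) had Il6st, against 25.1% (22.2 to 28.2) of the 848 without. Of 97 cells with Osmr, 21 also had Serpina3n (21.6%, 13.9 to 31.2), against 11.8% (9.71 to 14.1) of the 875 cells without Osmr, and these intervals just overlap. Of 327 cells with Stat3, 54.7% (49.2 to 60.2) had Socs3, against 39.8% (36.0 to 43.7) of the 645 without. Socs3 was seen in 57.7% (47.3 to 67.7) of the cells with Osmr and 43.4% (40.1 to 46.8) of those without. Stat3 was seen in 44.4% (35.4 to 53.5) of the cells with Serpina3n and 32.1% (28.9 to 35.3) of those without. Both of these pairs just separate, and their intervals overlap when the pair is read the other way. Of 65 cells with Clcf1, 13.8% (6.53 to 24.7) had Osmr, against 9.70% (7.85 to 11.8) of the rest, with overlapping intervals. Osmr and its partner chain Il6st were seen together in 31 cells, which is 32.0% (22.9 to 42.2) of the cells with Osmr, against 26.3% (23.4 to 29.3) of those without, and these intervals overlap. At 5000 UMIs most cells that carry a transcript give no UMI of it, so absence of a partner in a cell says little. Cells of 1 library share their source, so these shares describe that library.

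The UMIs of the sparser members lay in few injured EpA cells. The 50 injured EpA cells with most Clcf1 UMIs, 5% of the cells, held 59.9% of them, and the corresponding shares were 51.0% for Serpina3n, 32.5% for Osmr and 20.2% for Stat3. Shares of this kind rise as a gene gets sparser and as deep cells weigh more, so they are not comparable as such. A finer grouping set apart 13 injured cells led by Il11, Tagln and Acta2, the last 2 being contractile genes, and in these Clcf1 stood at 215 CPM. Clcf1 was itself among the 10 leading genes of that group.

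Injured EpA cells ranged from cells with the cilium transcripts of uninjured cells to cells with few, and the members differed along this range in different ways. Cells were thinned to 2000 UMIs and divided at 0.9% of UMIs from 39 cilium genes, the 5th percentile of uninjured cells. Of 992 injured cells, 548 lay below this range and 444 within it, 111 of the 992 lay within 20% of the dividing value, and 522 uninjured cells lay in range. Median depth before thinning was 28671 UMIs below the range and 11680.5 within it, against 11457 in uninjured cells in range, and the median mitochondrial share was 4.98%, 8.77% and 11.3%.

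Serpina3n and Stat3 were higher than in uninjured cells on either side of the division. Serpina3n stood at 39.9 CPM (37.1 to 42.8) in injured cells below the range, 32.0 CPM (27.8 to 36.7) in injured cells within it and 0 in uninjured cells in range. Stat3 stood at 92.5 CPM (88.2 to 97.0), 75.9 CPM (69.3 to 82.9) and 32.4 CPM (28.4 to 36.8) in the same 3 groups. Osmr was also present on either side, at 26.7 CPM (24.4 to 29.1) below, 14.9 CPM (12.1 to 18.1) within and 0.681 CPM (0.221 to 1.59) in uninjured cells. Injured cells within the range thus carried Osmr at 21.8 times (9.04 to 68.8) the uninjured level.

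Clcf1, Socs3 and Il6st differed more between injured cells below the range and uninjured cells within it than between injured and uninjured cells within it. The same held for Osmr, with ratios to uninjured cells of 39.1 below and 21.8 within, and for Stat3, at 2.85 and 2.34. Serpina3n, set against 3 counts, was at 97.6 and 78.4. Clcf1 stood at 31.4 CPM (28.9 to 34.0) in injured cells below the range, 3.53 CPM (2.24 to 5.29) in injured cells within the range and 1.498 CPM (0.748 to 2.68) in uninjured cells. The corresponding Socs3 levels were 255 CPM (248 to 262), 103 CPM (95.8 to 112) and 123 CPM (115 to 131), so that within the range the injured level was 1.19-fold lower (1.07 to 1.31). The 25 uninjured cells below the range had Socs3 at 293 CPM (238 to 357), from 99 UMIs, so on that side of the division too the injured level was not the higher one. Clcf1 had 0 UMIs in those 25 cells, and Il6st stood at 121 CPM (87.1 to 165). Il6st stood at 49.0 CPM (45.9 to 52.3) below the range, 85.7 CPM (78.7 to 93.1) within it and 94.8 CPM (87.9 to 102) in uninjured cells, and the last 2 intervals overlap. Lifr, at 6.93, 7.36 and 7.08 CPM, did not separate the groups.

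Among the cells below the range, 118 carried transcripts of at least 2 of 10 core mitosis genes and 430 did not. Every member except Clcf1 was lower in the 118 cells. Serpina3n stood at 14.3 CPM (11.6 to 17.6) in cells with mitosis transcripts and 53.4 CPM (49.3 to 57.6) in cells without, and Osmr at 16.7 CPM (13.7 to 20.1) and 31.9 CPM (28.8 to 35.3). Stat3 stood at 57.4 CPM (51.7 to 63.5) and 111 CPM (105 to 117). Clcf1 stood at 28.2 CPM (24.3 to 32.6) and 33.1 CPM (29.9 to 36.5), with overlapping intervals. The 118 cells were the deepest, with a median of 51865 UMIs, and thinned to 5000 UMIs Serpina3n was seen in 7.63% (3.55 to 14.0) of them and in 17.1% (13.7 to 21.1) of the others.

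**Figure D3:**
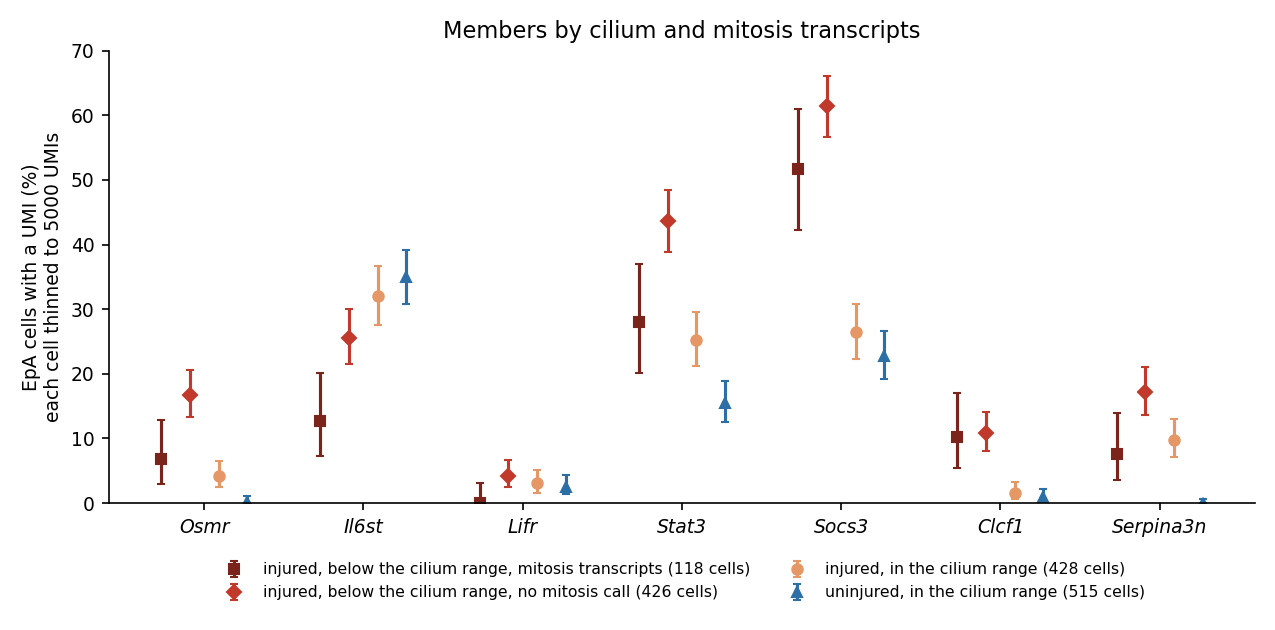
Percentage of EpA cells with at least 1 UMI of each member, each cell thinned to 5000 UMIs, in 3 sets of injured cells (left) and in uninjured cells in the cilium range (right, blue), with 95% exact binomial intervals. Osmr, Stat3 and Serpina3n are above the uninjured share in injured cells within the range, Clcf1 and Socs3 are above it in injured cells below the range, and Il6st is lowest in cells with mitosis transcripts.

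The Socs3 UMIs of uninjured cells lay mostly in 1 cluster. A cluster led by the early response genes Fos and Btg2, with cilium genes such as Ccdc153 and Hydin also among its leading genes, held 85 injured and 125 uninjured EpA cells. Its 125 cells were 22.5% of uninjured EpA cells and held 88.2% of that library's Socs3 UMIs, and its 85 cells were 8.47% of injured EpA cells and held 5.86% of theirs. In the cluster Socs3 stood at 279 CPM (249 to 311) in injured and 439.9 CPM (411 to 469.9) in uninjured cells. Outside it Socs3 stood at 213 CPM (207 to 219) in injured and 20.8 CPM (17.2 to 24.9) in uninjured cells, a ratio of 10.2 (8.54 to 12.4). Clusters were formed on many genes, Socs3 possibly among them, so these values are a description.

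Outside that cluster the injured Socs3 transcripts were highest in clusters with no cilium gene among the leading genes given here. In the cluster led by Crym and Tagln (210 injured EpA cells) Socs3 stood at 306 CPM, in the cluster led by Gfap and C4b (298 cells) at 268 CPM and in the remaining cluster (118 cells) at 154 CPM. Most leading genes of that last cluster were of granulocytes, such as S100a8, with the mitosis genes Prc1 and Pbk behind them, and 122 of its 130 cells were EpA cells. The 8 neutrophil and monocyte markers, S100a8 and S100a9 among them, summed to only 0.237 CPM in injured EpA cells. In uninjured cells outside EpA that fell into EpA clusters they summed to 144071 CPM. S100a8 and S100a9 thus do not mark the 118 injured EpA cells. In the cluster led by Pcp4 and Ccdc153, which held most uninjured EpA cells, Socs3 stood at 26.0 CPM in 293 injured and 19.8 CPM in 422 uninjured cells, a ratio of 1.31 (0.985 to 1.74). Fos stood at 773 CPM in injured and 60.5 CPM in uninjured cells outside its cluster and at 3053 and 3025 CPM inside it. That cluster is led by Fos and held 15.8% of injured and 94.6% of uninjured Fos UMIs, so these values depend on the grouping. Over all EpA cells Fos stood at 877 CPM in injured and 834 CPM in uninjured cells, a ratio of 1.05 (1.02 to 1.08). The part of early response transcripts in the Socs3 values was not tested.

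Clcf1 stood at 1.74 CPM in injured and 2.99 CPM in uninjured cells of the Fos and Btg2 cluster, from 2 and 6 UMIs, a ratio of 0.583 (0.0575 to 3.26), and at 25.3 and 0.880 CPM outside it, a ratio of 28.8 (12.3 to 88.9). Osmr, Stat3 and Serpina3n were higher in injured cells of both clusters that held many cells of each library, though the Osmr interval in the Fos and Btg2 cluster reaches below 1 (ratio 5.24, 0.938 to 53.1). In the Pcp4 and Ccdc153 cluster Osmr stood at 7.07 CPM in injured and 0.708 CPM in uninjured cells, a ratio of 9.98 (3.45 to 39.5), Stat3 at 58.3 and 29.4 CPM, a ratio of 1.98 (1.61 to 2.45), and Serpina3n at 18.1 CPM and 0. Il6st stood there at 88.5 and 98.3 CPM, a ratio of 0.901 (0.782 to 1.04). In the Fos and Btg2 cluster Serpina3n was at 13.1 CPM in injured cells and 0 in uninjured ones, and Stat3 at 63.6 and 39.4 CPM, a ratio of 1.62 (1.16 to 2.25). Osmr and Serpina3n were both highest in the Gfap and C4b cluster, at 44.2 and 86.3 CPM, which holds injured cells almost alone.

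**Figure D4:**
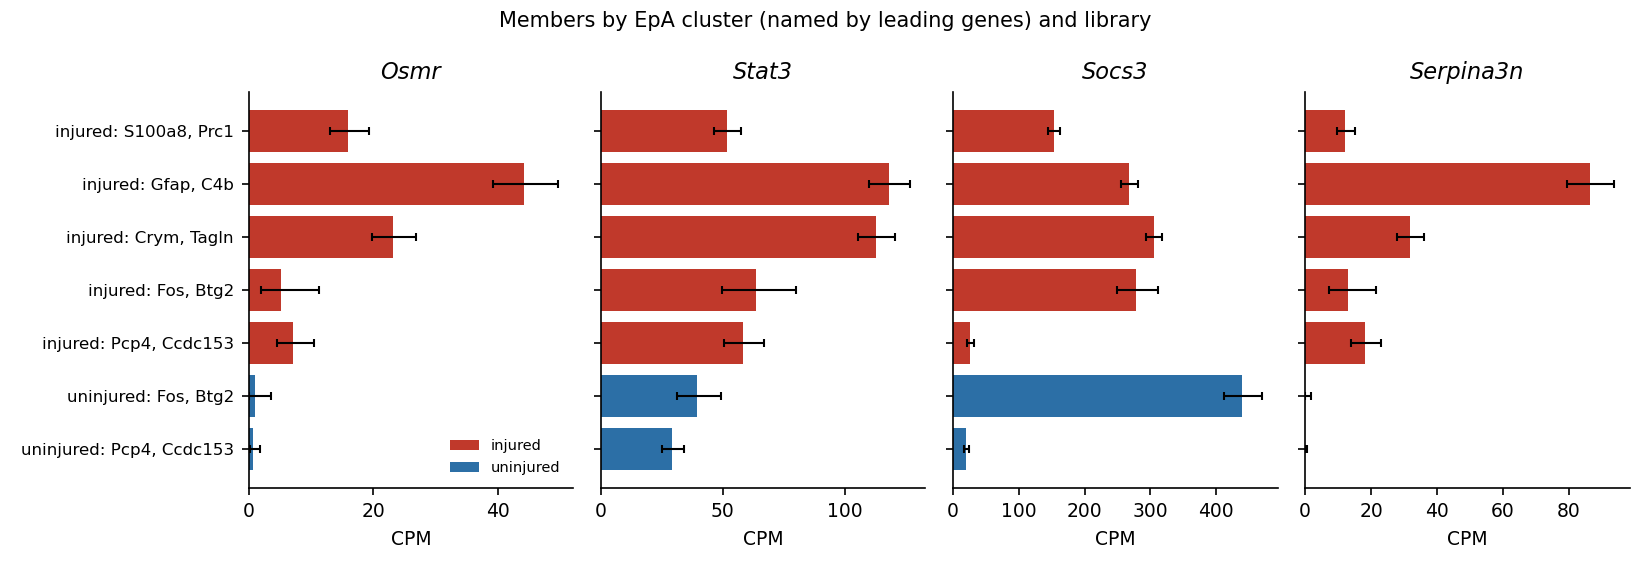
Levels of Osmr, Stat3, Socs3 and Serpina3n in CPM (bars from 0, with 95% Poisson intervals) for EpA clusters named by leading genes, with injured cells in red above and uninjured cells in blue below. Socs3 is highest in uninjured cells of the Fos and Btg2 cluster and low in the Pcp4 and Ccdc153 cluster of both libraries, whereas Osmr and Serpina3n are near or at 0 in both uninjured clusters.

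Outside the EpA set, 224 injured and 156 uninjured kept cells were grouped into classes named by markers. Oncostatin M transcripts were found in microglia-like cells. Osm had 120 UMIs in injured kept cells, all in the 30 microglia-like cells, 16 of which had a UMI, and 10 in uninjured kept cells, 9 of them in the 36 microglia-like cells. Its level there was 163 CPM in injured and 37.3 CPM in uninjured cells, a ratio of 4.36 with a lower bound of 2.22. One injured cell held 44 of the UMIs, and without the cell with most Osm UMIs in each library the levels were 111 and 30.2 CPM. A finer grouping divided this class into a cluster of 29 injured and 11 uninjured cells and a cluster of 1 and 24, so that different cells make up the class in each library. The receptor Osmr had 0 UMIs in microglia-like cells of either library.

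Clcf1 UMIs lay mainly in the EpA cells themselves. EpA cells held 613 of 640 Clcf1 UMIs of injured kept cells (95.8%), though they also make up most of the kept UMIs. Endothelial-like cells held 17 Clcf1 UMIs, at 3.70 CPM, and microglia-like cells none in the injured library. Serpina3n was sparse outside EpA except in astrocyte-like cells, at 577 CPM in 6 injured and 8.54 CPM in 30 uninjured cells. Of the 34 injured UMIs 25 lay in 1 cell, and without it the level was 367 CPM.

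Vascular and connective tissue cells carried Osmr, Il6st and Lifr in both libraries. In endothelial-like cells (115 injured, 51 uninjured) Osmr stood at 16.3 and 68.2 CPM, Il6st at 119.8 and 417 CPM and Lifr at 15.5 and 150.02 CPM. By size, 3 of 5 members at 50 CPM or more lay 2-fold or more below the uninjured level in injured cells and 0 lay as far above, where 18.0% of all genes in these cells were lower. The class is made of different cells in the 2 libraries. A cluster with hemoglobin genes and Cldn5 among its leading genes held 34 injured and 46 uninjured cells, and a cluster led by Ctla2a and Igfbp3 held 81 and 5. Within the first, Osmr stood at 43.6 and 67.0 CPM, a ratio of 0.651 with a lower bound of 0.359. That bound does not show whether the ratio differs from 1 beyond counting error. Il6st stood there at 386 and 419.6 CPM and Lifr at 60.2 and 152 CPM, 2.52-fold lower with a lower bound of 1.62-fold. Lifr alone kept a 2-fold difference within that cluster.

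In fibroblast-like cells (35 injured, 30 uninjured) Lifr stood at 10.4 and 475 CPM, and 52 of its 83 uninjured UMIs lay in 1 cell. Without the cell with most Lifr UMIs in each library it stood at 6.997 and 184 CPM, a ratio of 0.0381 (0.0151 to 0.0848). There 2 of 4 members at 50 CPM were 2-fold lower, Lifr and Socs3, and 0 higher, where 21.0% of genes were lower. Socs3 lost that mark without its highest cell in each library, at 83.5 and 99.7 CPM. Osmr, under the 50 CPM floor in both libraries and so not counted, was higher in injured fibroblast-like cells. It stood at 47.0 CPM in injured and 22.9 CPM in uninjured cells, from 54 and 4 UMIs. Without the cell with most Osmr UMIs in each library the levels were 44.1 and 11.5 CPM. The median depth was 19525 UMIs in injured and 1131.5 UMIs in uninjured fibroblast-like cells, so the uninjured sums rest on few cells. In microglia-like cells 2 of 3 members were 2-fold lower, where 24.3% of genes were. Socs3 stood at 261 CPM in injured and 944 CPM in uninjured microglia-like cells, and Il6st at 32.5 and 149 CPM. Stat3 stood at 96.2 and 95.2 CPM, a ratio of 1.01.

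**Figure D5:**
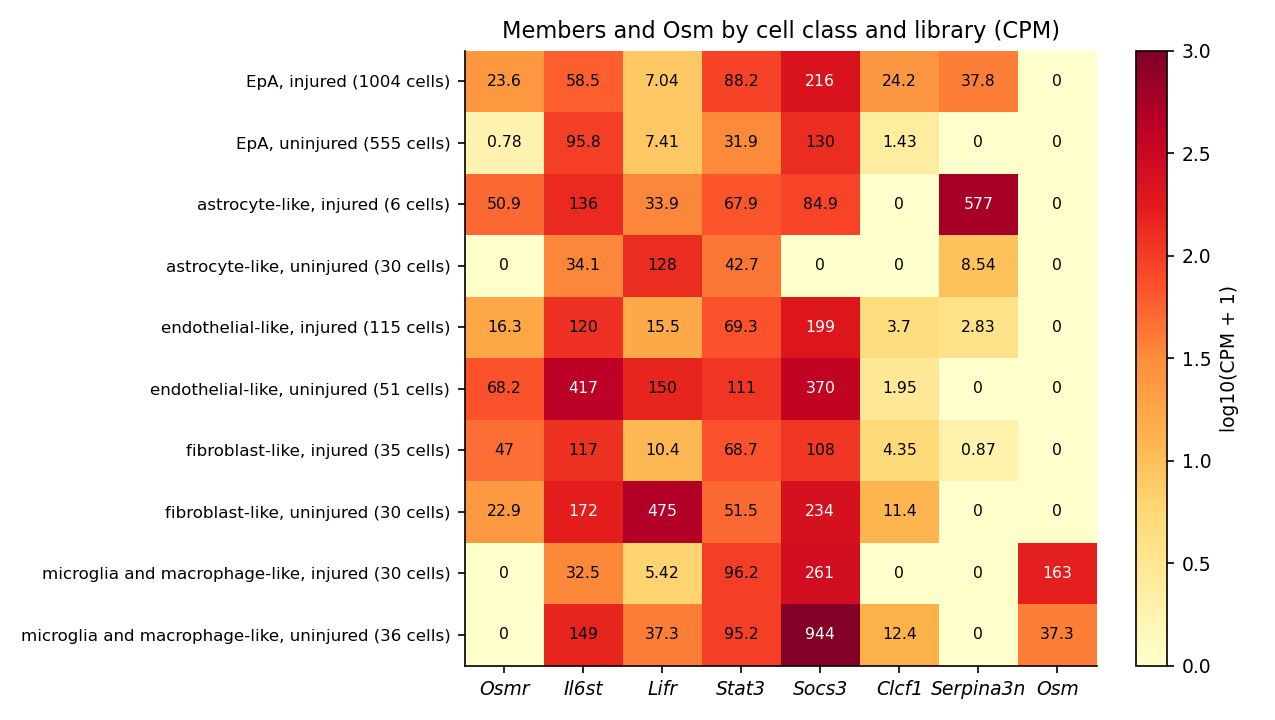
Levels in CPM of the 7 members and Osm (columns) in EpA cells and in 4 classes of kept cells outside EpA (rows, injured above uninjured), with colour on a log10(CPM + 1) scale. Osm is at 0 outside microglia-like cells in the classes shown, Osmr is at 0 in microglia-like cells, and Lifr is lower in the injured cells of the 4 classes outside EpA.

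Across 11 sets of at least 20 cells (EpA cells by cilium range, and classes outside EpA, by library), levels of 11264 genes were compared with those of 3 members on the log2(CPM + 5) scale. Gfap was the gene whose levels were most like those of Serpina3n (Pearson r = 0.954), followed by Sez6 (0.915), Reg1 (0.882), Slc5a3 (0.839) and Mrps6 (0.837). For Osmr the closest were Ano6 (0.937), 1110008L16Rik (0.929), Kank2 (0.918), Rab18 (0.911) and Ifitm1 (0.905). For Socs3 they were Fam32a (0.963), Ccdc71l (0.949), Chtf8 (0.936), Cebpg (0.934) and Pbx2 (0.933). The sets share 2 libraries and differ widely in depth, and with 11 points and so many genes high values arise readily, so these are descriptions with no test.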

How the data were processed

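Single-cell 3′ RNA sequencing was read from 1 injured and 1 uninjured library of sorted tdTomato-positive spinal cord cells. Cell Ranger 3.0.1, Seurat and the mm10 build are named per the submitters' processing notes. What each tool did and which annotation was counted is not stated there. The values the authors deposited are raw UMI counts per gene and cell, unnormalised. The deposited tables of kept cells and of EpA cells named those cells, and counts were taken from the deposited table of each library, with no differing value.

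UMIs were summed per library and set of cells and scaled to CPM. Intervals are exact and at 95%: Poisson for levels, conditional binomial for ratios and Clopper-Pearson for shares. They cover counting error only. For log2 ratios 0.5 counts were added to each sum, and a count of 0 was set against 3 counts over the set. Genes were called by size, at 5 CPM in either library (50 CPM outside EpA) and a 2-fold ratio. With 1 library per condition no p-value was computed. Kept cells were clustered with scanpy 1.11.5 on 2000 variable genes, 20 principal components and 15 neighbours by the Leiden method at resolution 0.5. Classes needed at least 3 of their markers at 100 CPM and a marker among the top 10 genes. The steps were tested on simulated data. Doublets were not called or removed.

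The members and gene lists were chosen with earlier results of these data known, and 1 listed gene is not reported here. Named genes were the 7 members, up to 4 called genes per list with the largest ratios, named partners of the members, and the 5 genes most like Osmr, Socs3 and Serpina3n. Ctf1, Jak3, Bcl3, Myc and Vegfa were named after their values were seen. Alternatives covered TMM scaling (edgeR 4.0.16), other totals, weighting, thinning, cell filters and limits. Leaving out the Fos and Btg2 cluster, the cell richest in a gene, or the cells below the cilium range was chosen after seeing the data.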

Additional observations from a re-analysis of the deposited data

Results flagged for a closer look

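Several members differed outside EpA cells in the direction opposite to EpA cells, and the difference between cell sets was not tested. In endothelial-like cells the ratio of injured over uninjured was 0.240 for Osmr, 0.624 for Stat3 and 0.537 for Socs3. For Socs3 it was 0.460 in fibroblast-like cells, where 25 of 41 uninjured UMIs lay in 1 cell, and 0.277 in microglia-like cells. Il6st had a ratio of 3.98 in astrocyte-like cells, from 8 UMIs in each library. Within the endothelial-like cluster with hemoglobin genes among its leading genes, the Stat3 and Socs3 ratios were 0.943 and 1.01, and Osmr was lower by less than 2-fold. In fibroblast-like cells Osmr went the same way as in EpA cells, at 47.0 CPM in injured and 22.9 CPM in uninjured cells, from 54 and 4 UMIs.

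Barcodes in the library tables that the authors did not keep (338 injured, 165 uninjured) also held more of 4 members in the injured library. Stat3 stood at 81.8 CPM in injured and 35.5 CPM in uninjured barcodes, Socs3 at 154 and 33.8 CPM, Clcf1 at 18.4 and 3.38 CPM and Serpina3n at 17.7 and 1.69 CPM. Their median depths were 2350 and 2272 UMIs, their sums 1357122 and 591977 UMIs, and their deepest barcodes held 263269 and 55182 UMIs. The uninjured levels of Clcf1 and Serpina3n thus rest on very few UMIs. A single library per condition allows no search for outlying samples.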

How the results depend on the processing

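No paired analysis was possible because each condition has 1 library, and no replicate could be left out. Osmr, Stat3, Clcf1 and Serpina3n were at least 2-fold higher in the main setting and in 14 alternatives. Log2 ratios ran from 2.17 to 5.94 for Osmr, 1.14 to 2.33 for Stat3 and 1.20 to 4.88 for Clcf1. Within the cilium range Clcf1 was under 5 CPM, and the size rule called 3 members there. Single clusters were not among these settings. In the Pcp4 and Ccdc153 cluster and the Fos and Btg2 cluster, Stat3 ratios were 1.98 and 1.62 and Clcf1 ratios 3.83 and 0.583. No range is given for Serpina3n, whose fold depends on the counts added to 0 uninjured UMIs. The upper end for Osmr depends on them too, as it came from cells thinned to 2000 UMIs, where 0 of 547 uninjured cells had a UMI. Socs3 ranged from −0.25 to 3.35, Il6st from −0.77 to 0.15 and Lifr from −1.76 to 0.78. At a 50 CPM floor 1 member was called higher. The 1393 genes higher in injured EpA cells became 4550 as UMIs per cell, 869 with every cell weighted alike, 188 within the cilium range, 768 and 403 at floors of 20 and 50 CPM, 2283 with no floor, and 2408 and 813 at 1.5-fold and 3-fold. The 12 pathway genes became 26 as UMIs per cell, 6 within the cilium range, 4 at 50 CPM and 20 with no floor. Il11 reversed within the cilium range, at a log2 ratio of −1.05 from 1 injured and 3 uninjured UMIs. Injured shares with Osmr were 5.24%, 19.4% and 33.5% at 2000, 10000 and all UMIs, and with Serpina3n 5.95%, 21.8% and 31.0%. Clcf1 below the range stood at 26.9 CPM when cells were divided at the median. Beyond fewer cells or UMIs, the cause was not tested.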
